A study of Mus musculus with 14 samples.

Results

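The 43 genes described here are the 13 protein-coding mRNAs of mouse mitochondrial DNA and 30 nuclear genes whose products replicate that DNA, transcribe it, or cut, protect, adenylate and degrade its transcripts. They were taken by gene symbol from the 55291 symbols of each of the 2 count tables, and all 43 were present and passed the low-count filter in both. The libraries are poly(A)-selected RNA from mouse cells labelled CD8+ T cells of genotype WT. In the culture experiment, whole splenocytes of OT-1 mice (whose transgenic T cell receptor recognises an ovalbumin peptide) were activated with 1 µg/mL of that peptide and grown with 200 U/mL recombinant human interleukin-2 for 3 days, then split and grown for 4 more days. The 4 libraries of the vehicle group had DMSO throughout, and the 4 of the ND-646 group were given ND-646 at 100 nM, a compound that blocks acetyl-CoA carboxylase, the enzyme that makes malonyl-CoA for fatty acid synthesis. In the tissue experiment, CD8+ cells were enriched and then sorted by flow cytometry from C57BL/6 mice carrying subcutaneous MCA205 fibrosarcomas at day 14, giving 3 spleen libraries and 3 tumour libraries, the latter from pooled tumour-infiltrating cells. No sort is named for the cultures, the labels give no age, and they do not state that the replicates of a group are separate animals or cultures. The p-values below therefore set a group difference only against the spread among these libraries, and that spread may be technical.

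Mitochondrial DNA is transcribed from both strands as long polycistronic RNAs. The heavy-strand transcript carries 12 of the 13 mRNAs and both rRNAs, and the light-strand transcript carries mt-Nd6. Transfer RNAs lie between most of the genes, and their excision frees the mRNAs. Those of the heavy strand are then given short poly(A) tails and are held by the LRPPRC-SLIRP complex or handed to a degradosome. All mRNAs of a strand begin in the same precursor, and processing and decay can set their levels apart. The encoded proteins are core subunits of respiratory complexes I, III and IV and of the ATP synthase, whose other subunits come from nuclear genes. T cells enlarge their mitochondria after activation.

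The deposited estimated counts summed to between 23463093 and 33807709 per culture library and between 19577963 and 21024516 per tissue library. CPM below means counts per 1e+06 of the library total after TMM scaling, fold changes are on the log2 scale, and a gene is called where edgeR's adjusted p over all genes tested is under 0.05. A log2 fold change is ND-646 minus vehicle, or tumour minus spleen. Where groups are said not to overlap, the share of all genes that separate likewise was not counted. Of all genes tested, 56.3% were called in culture and 83.8% in tissue. Levels were scaled separately in the 2 tables, so the culture and tissue groups were not tested against each other. As the libraries are poly(A)-selected, the counts of a mitochondrial mRNA are of RNA that the selection retained, and tails were not measured.

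For several of the mitochondrial mRNAs the deposited row holds only part of the counts that its sequence could give. Mouse nuclear DNA carries pseudogene copies of mitochondrial genes, and their rows hold the rest. Aligning the 13 mRNAs to the GENCODE M21 transcripts found 11 such copies, for 9 of the mRNAs, at 95% identity or more over at least 200 bases, and all 11 have rows of their own in the tables. A block of them on chromosome 1 is nearly identical to the mitochondrial sequence: the copies of mt-Atp6, mt-Co2, mt-Co3, mt-Nd4 and mt-Nd4l had 0 mismatches over their aligned lengths. The stretches below show how little there is to tell a read of the mRNA from one of its copy, with differing bases in capitals and positions counted from 1 at the first base of the mRNA. Over 678 aligned bases mt-Atp6 and Gm10925 did not differ, and bases 1 to 60 are shown. The pair mt-Nd3 and Gm28438 had 1 mismatch in 345 bases, T3C, and the pair mt-Co1 and Gm29216 had 1 mismatch in 483 bases, A1066T, in the stretch of bases 1063 to 1122.
mt-Atp6: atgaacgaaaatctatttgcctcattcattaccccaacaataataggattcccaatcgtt
Gm10925: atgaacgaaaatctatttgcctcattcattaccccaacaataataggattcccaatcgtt
mt-Nd3: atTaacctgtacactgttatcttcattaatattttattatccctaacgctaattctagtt
Gm28438: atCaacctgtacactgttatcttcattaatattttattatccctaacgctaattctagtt
mt-Co1: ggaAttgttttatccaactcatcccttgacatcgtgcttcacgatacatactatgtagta
Gm29216: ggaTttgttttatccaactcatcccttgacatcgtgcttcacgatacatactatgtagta

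Of the counts assigned to mt-Atp6 or its copy, between 13.5% and 20.2% stood on the mt-Atp6 row in the 14 libraries, and the rest stood on Gm10925. For mt-Co3, which shares with Gm28437, the share on its own row ran from 16.6% to 41.2%. It ran from 33.1% to 100.0% for mt-Nd3, from 33.8% to 100.0% for mt-Nd4l (copy Gm10222), from 86.0% to 98.2% for mt-Co2 and from 95.4% to 100.0% for mt-Nd4. The remaining 7 mRNAs kept at least 98.8% of their counts on their own rows. The split differed between replicates of the same group: ND-646 replicates 2 and 3 had 100.0% of the mt-Nd3 counts on its own row, against 59.9% and 64.5% in replicates 1 and 4. Adding the copy rows narrowed the spread among the tumour libraries from a coefficient of variation of 40.2% to 5.43% for mt-Nd3, and among the vehicle libraries from 20.03% to 7.64% for mt-Co3, although among the ND-646 libraries that of mt-Co3 widened from 3.86% to 9.95%. The values below are those of the deposited rows unless copies are said to be added. The copies can be transcribed themselves, and their own reads cannot be told apart from mitochondrial ones by these counts.

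**Figure D1:**
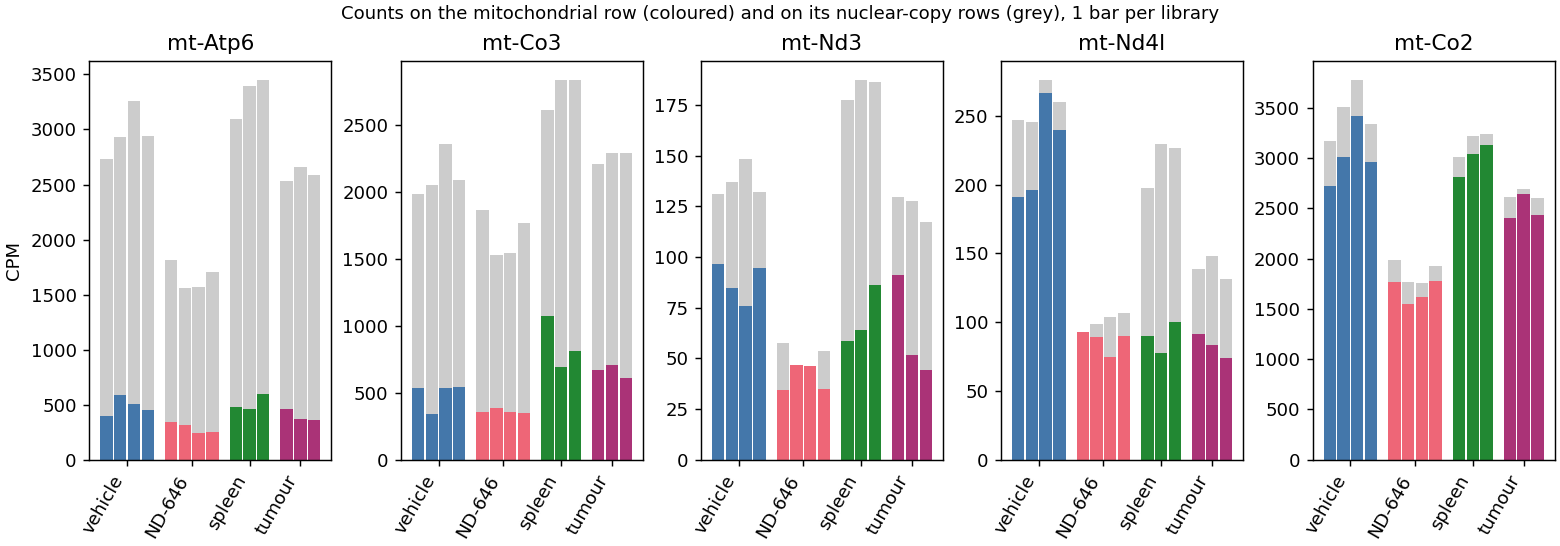
CPM in each library (vertical axis, 1 bar per library, 4 vehicle, 4 ND-646, 3 spleen and 3 tumour) for 5 mitochondrial mRNAs, with the deposited mitochondrial row in colour and its nuclear-copy rows in grey stacked above it. The mt-Atp6 row holds at most 20.2% of its bar in every library, while the coloured part of the mt-Nd3 bar ranges from 33.1% to 100.0%; the 2 experiments were scaled separately.

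Per kilobase of transcript and per 1e+06 counts, with copies added, mt-Co1 had the highest level in all 4 groups: 9540.4 ± 488 in vehicle, 8901 ± 105 in ND-646, 6324 ± 314 in spleen and 4688 ± 89.5 in tumour (SD, n = 4 in culture and n = 3 in tissue). mt-Co1 encodes the catalytic subunit of complex IV. The next places were held by mt-Co2 and mt-Atp6, at 4986 ± 375 and 4311 ± 321 in vehicle and at 4638 ± 211 and 4888 ± 303 in spleen, where their order was exchanged and the ranges overlapped. The lowest level in every group was that of mt-Nd3, at 390.0 ± 22.6, 148 ± 15.8, 530.4 ± 18.03 and 357 ± 19.1 in the same order of groups. Without the copies mt-Atp6 stood at only 708 ± 115 in vehicle and mt-Co3 at 616 ± 125, so the place of these mRNAs in the order depends on whether the copy rows are counted. All 13 come from the same DNA, and these are differences in counts per kilobase, not measured amounts of each mRNA. Counts were divided by full length, with no correction for fragment length, and mt-Nd3 (348 bases), mt-Nd4l (297) and mt-Atp8 (204) are short. With copies added mt-Atp8 had 765 ± 39.0 in vehicle, although it is read from the same mRNA as mt-Atp6. The places of the short rows therefore describe counts only.

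With ND-646 the mitochondrial mRNAs were lower than with vehicle, unequally. Of the 13, 11 fell and none rose, with a median log2 fold change of -0.94, against 0.01 over all 14251 genes tested, and mt-Cytb fell by 1.58 while mt-Co1 fell by 0.13. In bulk RNA, fewer cells of a type and less RNA per cell cannot be told apart. Across all genes 56.3% were called, 29.8% higher and 26.5% lower. Over all 43 members 8 rose and 19 fell, a median of -0.12. With copies added 12 of the 13 mRNAs fell, all but mt-Nd6.

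All 6 complex I mRNAs of the heavy strand fell. mt-Nd1 stood at 1709.6, 1764, 1849 and 1675 CPM in vehicle replicates 1 to 4 and 790.2, 814, 828 and 759 CPM in ND-646 replicates 1 to 4. For mt-Nd1 the log2 fold change was -1.13 ± 0.04 (SE, adjusted p = 1.89e-13). mt-Nd2 was at 969, 1037, 1085 and 979 CPM with vehicle and 473, 468, 475 and 442 CPM with ND-646, and changed by -1.13 ± 0.04 (SE, adjusted p = 2.7e-13). For both, every vehicle library was above every ND-646 library by a wide margin. mt-Nd4 was at 2319, 2468, 2715 and 2428 CPM with vehicle and 1047, 999, 1014 and 1068 CPM with ND-646. For mt-Nd4 the log2 fold change was -1.27 ± 0.05 (SE, adjusted p = 1.77e-13). Its overlapping neighbour mt-Nd4l, read from the same bicistronic mRNA, was at 191, 196, 267 and 239.5 CPM with vehicle and 92.7, 89.5, 74.3 and 89.6 CPM with ND-646. For mt-Nd4l the log2 fold change was -1.37 ± 0.13 (SE, adjusted p = 0.000112). The 2 cistrons moved together, and with copies added mt-Nd4l was at 247, 245, 276 and 259.7 CPM with vehicle and 92.7, 98.7, 103 and 107 CPM with ND-646, with a change of -1.36 ± 0.05 (SE, adjusted p = 1.29e-13). mt-Nd3 was at 96.5, 84.8, 75.6 and 94.4 CPM with vehicle and 34.4, 46.8, 45.9 and 34.7 CPM with ND-646. For mt-Nd3 the log2 fold change was -1.12 ± 0.14 (SE, adjusted p = 0.000346). With its copy added mt-Nd3 was at 131, 137, 148 and 132 CPM with vehicle and 57.5, 46.8, 45.9 and 53.8 CPM with ND-646, and its change was -1.43 ± 0.07 (SE, adjusted p = 4.76e-09). The difference for mt-Nd3 was thus larger, and its error smaller, once both rows were counted.

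mt-Nd5 had the smallest change of the heavy-strand complex I mRNAs. It was at 1654, 1673, 1906 and 1685 CPM with vehicle and 1566, 1585, 1605 and 1599 CPM with ND-646. For mt-Nd5 the log2 fold change was -0.12 ± 0.04 (SE, adjusted p = 0.0234). Its groups did not overlap, but vehicle replicate 3 stood above the other libraries, and without that library the change was -0.07 (adjusted p = 0.118) and no longer called. mt-Nd6, the light-strand complex I mRNA, was at 319.5, 327, 352 and 321 CPM with vehicle and 379, 308, 312 and 332 CPM with ND-646. For mt-Nd6 the log2 fold change was 0.01 ± 0.06 (SE, adjusted p = 0.873). Its groups overlapped, with ND-646 replicate 1 the highest of the 8 libraries, and with ND-646 replicates 1 and 4 left out its value was -0.10 (adjusted p = 0.0339). The library kit marks strand, but the use of strand in counting is not given in the sources used here. Whether reads of mt-Nd6 were counted apart from those of the RNA antisense to it is therefore not known. How much mt-Nd6 RNA the poly(A) selection retained is not known either, as tails were not measured.

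mt-Cytb, the complex III subunit cytochrome b and the last gene of the heavy strand, had the largest change among the 13 mRNAs. It was at 2235, 2322, 2637 and 2345 CPM in vehicle replicates 1 to 4 and 867, 709.6, 727 and 891 CPM in ND-646 replicates 1 to 4. For mt-Cytb the log2 fold change was -1.58 ± 0.09 (SE, adjusted p = 2.17e-07). All 4 ND-646 libraries lay far below all 4 vehicle libraries, and no nuclear copy was found for this mRNA.

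The 3 complex IV mRNAs differed among themselves. mt-Co2 was at 2726, 3013, 3414 and 2965 CPM with vehicle and 1771, 1549, 1619 and 1778 CPM with ND-646. For mt-Co2 the log2 fold change was -0.85 ± 0.07 (SE, adjusted p = 2.7e-07). mt-Co1, the most abundant of the 13, was at 14463, 14466, 15979 and 14669 CPM with vehicle and 13686, 13639, 13585 and 13352 CPM with ND-646, a change of only -0.13 ± 0.04 (SE, adjusted p = 0.00681). mt-Co3 was at 533, 341, 535 and 542 CPM with vehicle and 359, 384, 359 and 352 CPM with ND-646, a change of -0.42 ± 0.16 (SE, adjusted p = 0.058) that was not called. Its groups overlapped, as vehicle replicate 2 was lower than every ND-646 library. Without vehicle replicate 2 the mt-Co3 change was -0.56 (adjusted p = 1.17e-08). With the counts of Gm28437 added mt-Co3 was at 1990.1, 2054, 2359 and 2095 CPM with vehicle and 1866, 1528, 1545 and 1767 CPM with ND-646, the groups separated, and the change was -0.34 ± 0.07 (SE, adjusted p = 0.00198).

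Both ATP synthase mRNAs fell. mt-Atp8, which overlaps mt-Atp6 and is read from the same bicistronic mRNA, was at 159, 147, 163 and 162 CPM with vehicle and 81.6, 78.4, 82.2 and 86.5 CPM with ND-646. For mt-Atp8 the log2 fold change was -0.94 ± 0.04 (SE, adjusted p = 3.58e-12). mt-Atp6 was at 399, 589, 507 and 455 CPM with vehicle and 341, 315, 245 and 250.2 CPM with ND-646, a change of -0.76 ± 0.17 (SE, adjusted p = 0.00787), with a wide spread in both groups. With the copy added mt-Atp6 was at 2733, 2928, 3261 and 2943 CPM with vehicle and 1816, 1562, 1571 and 1706 CPM with ND-646. For mt-Atp6 the log2 fold change was -0.83 ± 0.06 (SE, adjusted p = 1.24e-08). No copy of mt-Atp8 was found, but the search required at least 200 aligned bases of its 204 in annotated transcripts. A shorter or unannotated copy would be missed, and copies were added to mt-Atp6 only. The log2 ratio of mt-Atp8 to mt-Atp6 with copies added was -4.23 ± 0.11 with vehicle and -4.34 ± 0.10 with ND-646 (SD, n = 4 each), and the groups overlapped (exact permutation test, 2-sided, p = 0.286). They also overlapped for mt-Nd4l to mt-Nd4, at -3.28 ± 0.04 and -3.36 ± 0.09 (exact permutation p = 0.143).

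**Figure D2:**
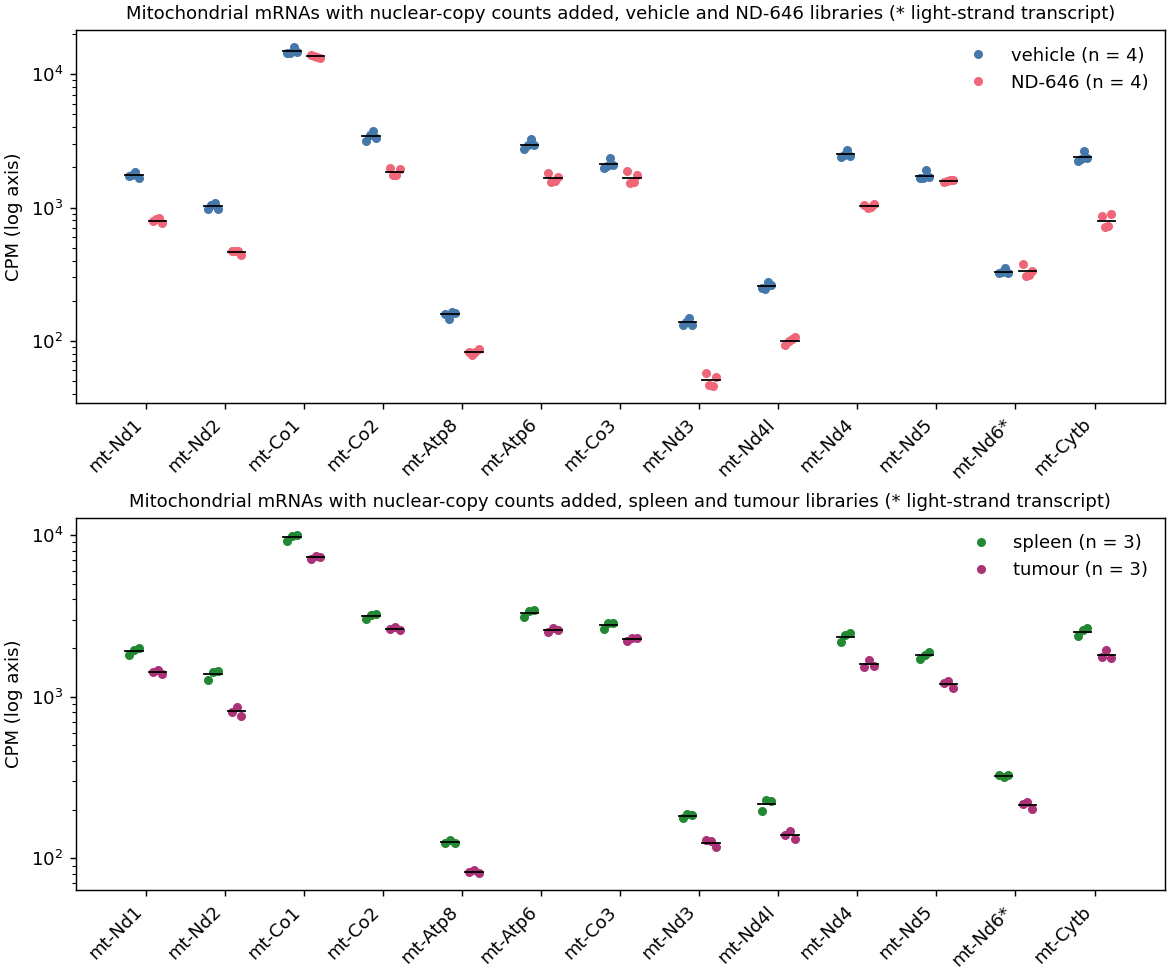
CPM on a log axis for the 13 mitochondrial mRNAs with nuclear-copy counts added, in their order along the mitochondrial DNA, 1 point per library and a black line at each group mean (above 4 vehicle and 4 ND-646 libraries, below 3 spleen and 3 tumour libraries, scaled separately). In culture the groups separate for all mRNAs but mt-Nd6, with the smallest gaps at mt-Co1 and mt-Nd5; in tissue all 13 are lower in tumour under this TMM scaling, while the rows as deposited all have positive log2 fold changes when scaled to CD8 identity genes.

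The 13 mRNAs made up 2.88% ± 0.17 of all counts with vehicle and 2.13% ± 0.02 with ND-646 (SD over 4 libraries per group). A 2-sided exact permutation test gave p = 0.0286, which is as low as 4 against 4 can go. The vehicle libraries held 2.76, 2.8, 3.12 and 2.82% and the ND-646 libraries 2.16, 2.12, 2.12 and 2.13%. The make-up of this pool differed too: 11 of the 13 shares of the 13-mRNA sum differed with an adjusted p of 0.0338 over the 13 (exact permutation tests). For each of the 11 the unadjusted exact permutation p was 0.0286, again the lowest possible. mt-Co1 took 51.3% ± 0.6 of the pool with vehicle and 64.2% ± 0.76 with ND-646. mt-Nd5 went from 5.95% ± 0.077 to 7.52% ± 0.16 and mt-Nd6 from 1.14% ± 0.017 to 1.57% ± 0.13. The other 8 shares that differed were lower with ND-646, the mt-Cytb share going from 8.2% ± 0.14 to 3.78% ± 0.42. With copies added, 13 of 13 shares differed, 4 of them higher, mt-Co3 being the fourth. The shares add up to a fixed total, so a higher mt-Co1 share lowers the rest. With mt-Co1 left out of the sum, as deposited, 8 shares differed, 3 higher and 5 lower, mt-Cytb among the lower. The mt-Co2, mt-Nd3 and mt-Atp8 shares, lower in the sum of 13, then overlapped between the groups. The log2 ratio of mt-Nd6 to the 12 heavy-strand mRNAs was -6.44 ± 0.02 with vehicle and -5.97 ± 0.12 with ND-646 (exact permutation p = 0.0286). Any part of poly(A) tails and their selection in these shares and this ratio was not tested.

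Large and small changes were interspersed along the heavy strand. In the order of the genes, with copies added, the log2 fold changes were -1.13 for mt-Nd1, -1.13 for mt-Nd2, -0.13 for mt-Co1, -0.89 for mt-Co2, -0.94 for mt-Atp8, -0.83 for mt-Atp6, -0.34 for mt-Co3, -1.43 for mt-Nd3, -1.36 for mt-Nd4l, -1.28 for mt-Nd4, -0.12 for mt-Nd5 and -1.58 for mt-Cytb. The 2 mRNAs with the smallest heavy-strand changes, mt-Co1 and mt-Nd5, are thus each followed by a gene whose change was larger, and no steady gradient from the start to the end of the strand appears in these values. The 2 rRNAs at the start of the same strand did not move as the mRNAs did. mt-Rnr1, the small-subunit rRNA, went from 458 ± 17.6 to 593 ± 51.4 CPM (log2 fold change 0.37 ± 0.05, adjusted p = 2.19e-05), and mt-Rnr2, the large-subunit rRNA, from 1321 ± 29.4 to 1088 ± 163 CPM (log2 fold change -0.28 ± 0.10, adjusted p = 0.0385). Their summed share of counts was 0.176% ± 0.004 with vehicle and 0.170% ± 0.022 with ND-646 (exact permutation p = 0.571); rRNA counts in poly(A)-selected libraries are what the selection left.

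**Figure D3:**
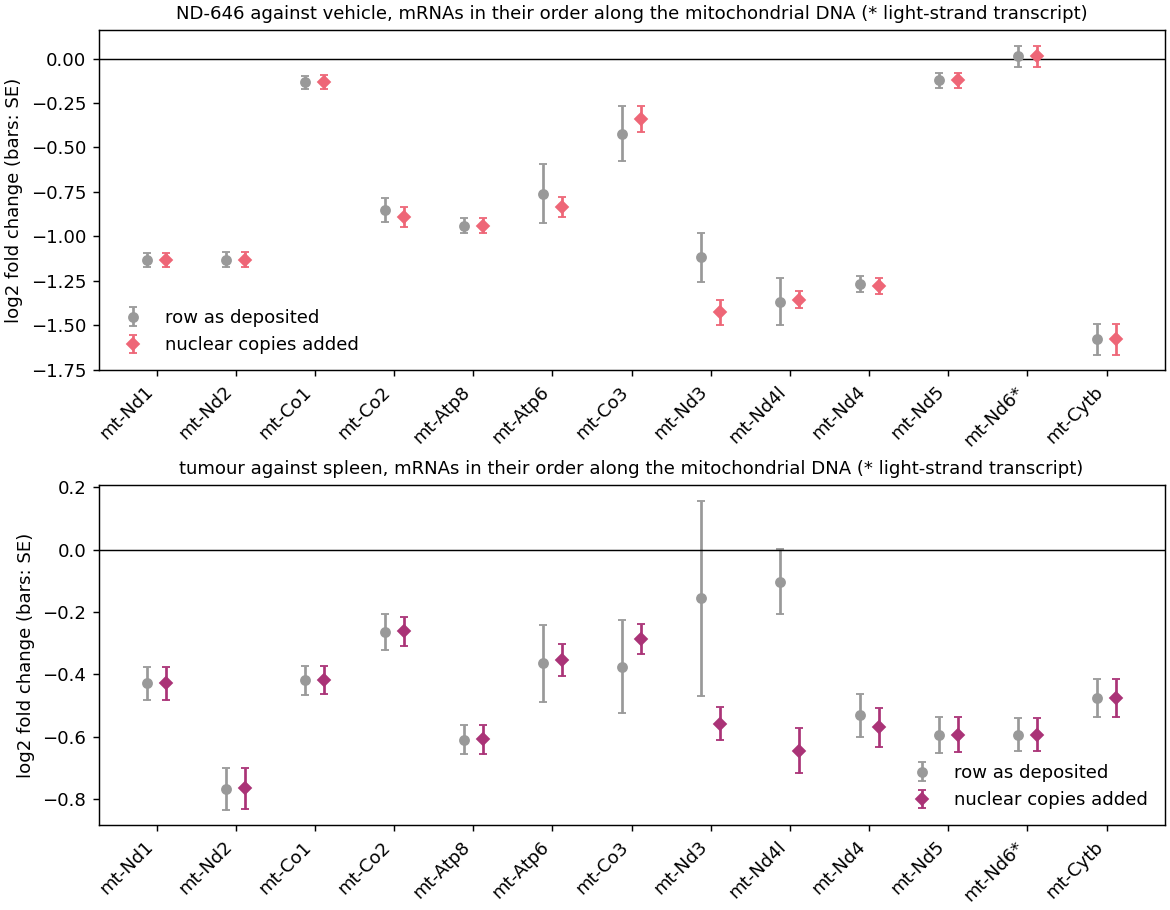
Log2 fold changes of the 13 mitochondrial mRNAs (vertical axis; bars are SE from edgeR) in their order along the mitochondrial DNA, from the rows as deposited (grey) and with nuclear copies added (coloured), above for ND-646 against vehicle (n = 4 each) and below for tumour against spleen (n = 3 each). Above, mt-Co1, mt-Nd5 and mt-Nd6 lie near 0 and mt-Cytb is lowest at -1.58; below, mt-Nd3 moves from -0.16 to -0.56 and mt-Nd4l from -0.10 to -0.65 when the copies are added, values that hold under TMM scaling and become positive for all 13 as deposited when libraries are scaled to CD8 identity genes.

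The ND-646 libraries divided into pairs. Replicates 1 and 4 were nearer each other over all genes than either was to replicates 2 and 3, with chi-square values per degree of freedom of 5.07 for 1 and 4 and 3.65 for 2 and 3 against 7.37 to 11.3 across the pairs. The mitochondrial mRNAs followed this division in part: with copies added, replicates 1 and 4 were both above replicates 2 and 3 for 7 of the 13 mRNAs (mt-Nd3, mt-Nd4, mt-Nd6, mt-Co2, mt-Co3, mt-Atp6 and mt-Cytb) and both below for mt-Nd1. The calls were nearly as many with either pair alone against the 4 vehicle libraries: 12 of the 13 mRNAs fell with replicates 1 and 4 left out, and 10 fell with replicates 2 and 3 left out, when mt-Atp6 had -0.72 (adjusted p = 0.0576).

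The 30 nuclear members did not move as a block with ND-646: 8 rose and 8 fell, with a median log2 fold change of -0.02 and a range from -0.40 to 0.61. Their called share, 53.3%, is near the 56.3% of all genes tested. Of the 5 genes listed under transcription, Tefm rose, Polrmt and Tfb2m fell, and Tfam and Tfb1m were not called. Polrmt, the mitochondrial RNA polymerase, was at 46.7, 47.4, 46.99 and 45.6 CPM with vehicle and 38.6, 38.7, 40.2 and 42.6 CPM with ND-646. For Polrmt the log2 fold change was -0.22 ± 0.04 (SE, adjusted p = 0.000311). Tfb2m, which helps the polymerase open the promoter, was at 21.5, 22.1, 22.3 and 22.9 CPM with vehicle and 18.4, 16.4, 17.6 and 17.1 CPM with ND-646. For Tfb2m the log2 fold change was -0.35 ± 0.06 (SE, adjusted p = 4.09e-05). Tefm, the elongation factor, was at 5.52, 6.44, 6.57 and 6.82 CPM with vehicle and 8.49, 7.98, 7.93 and 8.52 CPM with ND-646. For Tefm the log2 fold change was 0.38 ± 0.09 (SE, adjusted p = 0.00111). In all 3 the groups did not overlap, in a comparison where 56.3% of all genes tested were called. Tfam, which packages mitochondrial DNA and binds its promoters, had 0.08 (adjusted p = 0.149), and Tfb1m, an rRNA methyltransferase, 0.14 (adjusted p = 0.0805). With ND-646 replicates 2 and 3 left out both were called higher, at 0.12 (0.0422) and 0.20 (0.0346).

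The upstream sequences of these genes were searched for motifs of factors known to drive nuclear genes for mitochondria. Promoters from the RefSeq table for GRCm38.p6 (250 bases before to 50 after the start) were found for 28 of the 30 nuclear members, 3 of them with 2 promoters each, and not for Mtpap and Top1mt. On either strand, GCGCATGC, the core of the NRF1 site, occurred in 2 of these 31 promoters (6.45%), against 2.71% of the 32851 promoters of the table. The letters CCGGAAG, an ETS site bound by GABPA, occurred in 14 of the 31 (45.2%) against 8.86%, and CACGTG, the E-box, in 2 of the 31 (6.45%, Fastkd1 and Lonp1) against 7.15%. The 32851 promoters were not matched to those of the members for expression or base composition. Whether these contrasts are particular to the members was therefore not tested. The members with the ETS letters were Dhx30, Fastk, Fastkd5, Grsf1, Polg, Polg2, Polrmt, Slirp, Ssbp1, Tbrg4, Tefm, Tfam, Trmt10c and Twnk, and they include genes that rose, fell and were not called with ND-646. The bases before the start of Polrmt and Tfam and the stretch of Tfb2m around its NRF1 core follow, since these are the polymerase and its partners, with matched letters in capitals. In Polrmt the second match is CTTCCGG, the ETS letters read on the other strand. In Tfb2m the match is GCATGCGC, the NRF1 core read on the other strand, and the stretch printed runs past the start. The coordinates are Polrmt chr10:79746582-79746831, Tfam chr10:71238045-71238294 and Tfb2m chr1:179546245-179546274, all on the minus strand of GRCm38.p6 and written 5′ to 3′ along the gene. No chromatin or binding was measured, so a match is a description of the letters only.
Polrmt: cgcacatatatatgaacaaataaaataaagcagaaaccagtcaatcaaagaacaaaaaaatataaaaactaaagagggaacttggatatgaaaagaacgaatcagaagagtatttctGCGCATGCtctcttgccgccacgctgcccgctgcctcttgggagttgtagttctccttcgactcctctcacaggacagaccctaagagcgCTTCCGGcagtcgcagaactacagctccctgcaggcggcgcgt
Tfam: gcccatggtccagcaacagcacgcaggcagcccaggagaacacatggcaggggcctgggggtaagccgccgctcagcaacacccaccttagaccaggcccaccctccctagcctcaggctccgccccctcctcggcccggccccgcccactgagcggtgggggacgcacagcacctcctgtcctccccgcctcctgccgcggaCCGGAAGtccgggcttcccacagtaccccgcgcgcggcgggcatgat
Tfb2m: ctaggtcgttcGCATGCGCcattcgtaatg

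Of the 6 replication genes, Ssbp1 and Polg rose and none fell. Ssbp1, the single-stranded DNA binding protein, was at 35.8, 38.1, 35.7 and 34.1 CPM with vehicle and 42.96, 40.6, 40.3 and 41.1 CPM with ND-646. For Ssbp1 the log2 fold change was 0.20 ± 0.05 (SE, adjusted p = 0.00142). Polg, the catalytic subunit of the mitochondrial DNA polymerase, had a mean of 66.02 ± 1.44 CPM with vehicle and 75.04 ± 3.21 with ND-646. For Polg the log2 fold change was 0.19 ± 0.04 (SE, adjusted p = 0.000761). Its accessory subunit Polg2 had -0.19 (adjusted p = 0.0532), the helicase Twnk -0.12 (0.0678), the nuclease Mgme1 -0.07 (0.446) and the topoisomerase Top1mt 0.02 (0.815), with adjusted p-values in parentheses, and none of the 4 was called. Polg2 was near the threshold: it was called lower in 4 of the 8 fits without a library, namely without vehicle replicate 2 (-0.24, adjusted p = 0.0271) or 3 (-0.21, 0.0496) or ND-646 replicate 2 (-0.22, 0.0415) or 4 (-0.24, 0.0253), and with ND-646 replicates 1 and 4 both left out (-0.23, 0.0442), when Twnk was called too (-0.15, 0.0466).

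Among the 3 genes that cut the precursor, Hsd17b10 rose and Elac2 fell. Hsd17b10, a subunit of mitochondrial RNase P, changed by 0.19 ± 0.04 (SE, adjusted p = 0.00105), while its partner Trmt10c had -0.02 (adjusted p = 0.735). Elac2, which cuts the 3′ ends of tRNAs, changed by -0.14 ± 0.05 (SE, adjusted p = 0.0112), and without vehicle replicate 2, the highest library, by -0.11 (adjusted p = 0.0586). Of the 5 genes of stability, polyadenylation and decay, Mtpap rose and Lrpprc and Supv3l1 fell. Lrpprc, which with Slirp coats and protects mitochondrial mRNAs, was at 95.8, 94.3, 97.02 and 98.1 CPM with vehicle and 81.7, 75.8, 86.5 and 83.2 CPM with ND-646, a change of -0.24 ± 0.04 (SE, adjusted p = 9.37e-05); Slirp had 0.01 (adjusted p = 0.904). Every ND-646 library was below every vehicle library for Lrpprc, and the Slirp groups overlapped. Mtpap, the mitochondrial poly(A) polymerase, was at 52.4, 48.4, 48.6 and 47.7 CPM with vehicle and 58.3, 57.6, 59.1 and 54.3 CPM with ND-646. For Mtpap the log2 fold change was 0.22 ± 0.04 (SE, adjusted p = 0.000351). Supv3l1, the helicase of the degradosome, changed by -0.23 ± 0.06 (SE, adjusted p = 0.00196), and Pnpt1, its ribonuclease, had -0.08 (adjusted p = 0.153).

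Of the 4 genes of RNA granules and ribosome assembly, Grsf1, an RNA-binding protein of the granules, changed by 0.14 ± 0.05 (SE, adjusted p = 0.0121), with ND-646 replicate 4 below the highest vehicle library. With ND-646 replicates 2 and 3 left out its change was 0.10 (adjusted p = 0.0785), no longer called. Dhx30 had 0.07 (adjusted p = 0.137), Ptcd1 0.04 (0.545) and Ptcd3 -0.08 (0.121), and were not called; Ptcd3 was called lower without vehicle replicate 4 (-0.11, 0.0472). The FASTK family, RNA-binding proteins that act on single mitochondrial transcripts, was split: Fastk rose, Fastkd2, Fastkd5 and Tbrg4 fell, and Fastkd1 (-0.06) and Fastkd3 (-0.01) were not called. Fastk, whose short form is needed for mt-Nd6 mRNA, was at 67.9, 73.4, 68.1 and 70.6 CPM with vehicle and 82.9, 79.2, 79.5 and 82.9 CPM with ND-646. For Fastk the log2 fold change was 0.21 ± 0.04 (SE, adjusted p = 0.000166). Fastkd5, needed to free mRNAs that no tRNA flanks, was at 10.6, 10.3, 10.3 and 10.3 CPM with vehicle and 7.499, 9.04, 8.04 and 6.89 CPM with ND-646. For Fastkd5 the log2 fold change was -0.40 ± 0.08 (SE, adjusted p = 0.000615). Fastkd2, which binds the large-subunit rRNA, was at 20.01, 20.6, 20.4 and 18.8 CPM with vehicle and 17.6, 15.97, 17.00 and 15.3 CPM with ND-646. For Fastkd2 the log2 fold change was -0.28 ± 0.06 (SE, adjusted p = 0.00111). Tbrg4, also called FASTKD4, was at 71.9, 78.03, 64.1 and 73.5 CPM with vehicle and 58.7, 59.5, 57.2 and 60.9 CPM with ND-646. For Tbrg4 the log2 fold change was -0.28 ± 0.05 (SE, adjusted p = 0.000101). For each of these 4 genes the groups did not overlap, in a comparison where 56.3% of all genes tested were called. Lonp1, the matrix protease that degrades TFAM when it is not bound to DNA, had the largest change among the nuclear members, at 293, 304, 279 and 293 CPM with vehicle and 463, 447, 432 and 447 CPM with ND-646, or 0.61 ± 0.04 (SE, adjusted p = 1.95e-10).

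**Figure D4:**
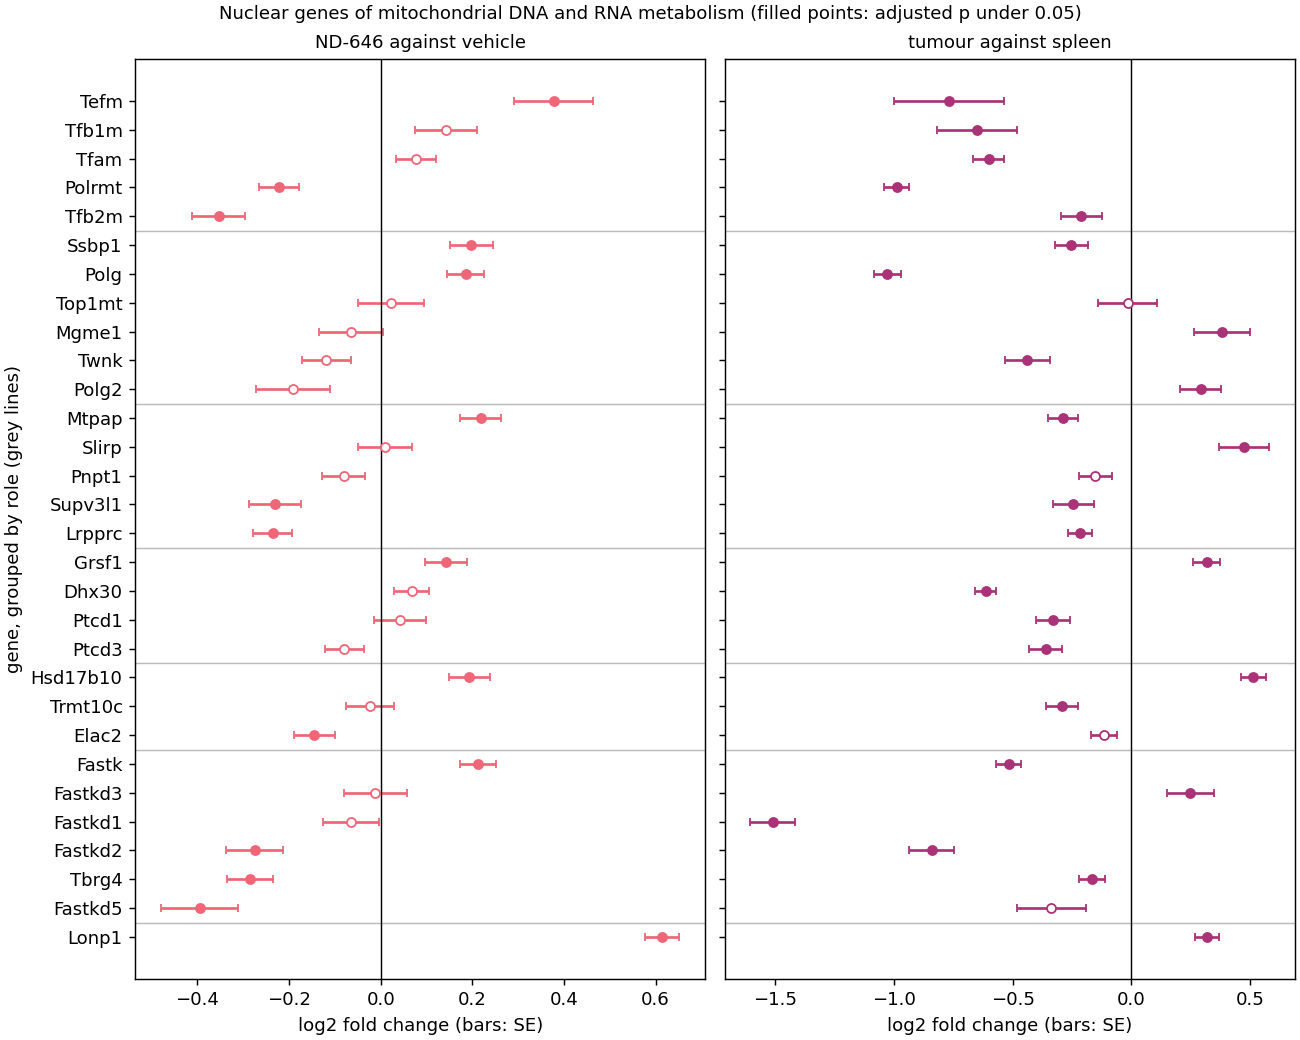
Log2 fold changes of the 30 nuclear members (horizontal axis; bars are SE), grouped by role from transcription at the top through replication, stability, granules, cleavage and the FASTK family to Lonp1, for ND-646 against vehicle (left, n = 4 each) and tumour against spleen (right, n = 3 each); filled points have an adjusted p under 0.05. The left panel has 8 filled points on each side of 0, and the right panel 7 above and 19 below under TMM scaling, which become 24 above and 1 below when libraries are scaled to CD8 identity genes.

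Other genes of the same pathway were read from 6 further lists. With ND-646, of mitochondrial translation factors 4 rose and 2 fell of 15 tested, the recycling factor Mrrf going from 12.7 ± 0.691 to 15.3 ± 0.965 CPM (log2 fold change 0.27 ± 0.07, adjusted p = 0.0028) and the elongation factor Gfm1 from 55.5 ± 1.76 to 49.7 ± 0.44 CPM (log2 fold change -0.16 ± 0.04, adjusted p = 0.00213). Of mitochondrial aminoacyl-tRNA synthetases 5 rose and 3 fell of 22 tested, with Fars2 from 15.8 ± 1.99 to 22.6 ± 1.901 CPM (log2 fold change 0.52 ± 0.08, adjusted p = 6.31e-05) and Mars2 from 37.2 ± 0.933 to 28.9 ± 2.100 CPM (log2 fold change -0.36 ± 0.05, adjusted p = 1.65e-05). Other genes of RNA processing and modification mostly rose where they were called: 13 rose and 2 fell of 31 tested. Lactb2, a mitochondrial endoribonuclease, went from 28.6 ± 1.899 to 45.7 ± 1.71 CPM (log2 fold change 0.68 ± 0.05, adjusted p = 4.2e-09), and Nsun2, an RNA methyltransferase, from 206 ± 7.94 to 185 ± 1.25 CPM (log2 fold change -0.15 ± 0.04, adjusted p = 0.00185). Of genes for other mtDNA maintenance and nucleotide supply 8 rose and 4 fell of 17 tested. Tk2, the mitochondrial thymidine kinase, went from 28.1 ± 0.542 to 53.4 ± 2.61 CPM (log2 fold change 0.93 ± 0.05, adjusted p = 1.33e-11), and Dna2, a nuclease-helicase that also serves nuclear replication, from 18.4 ± 1.36 to 6.32 ± 0.857 CPM (log2 fold change -1.54 ± 0.09, adjusted p = 9.36e-11). Of regulators of mitochondrial gene expression 3 rose and 5 fell of 15 tested, with Tfe3 from 26.7 ± 0.765 to 35.96 ± 1.700 CPM (log2 fold change 0.43 ± 0.05, adjusted p = 9.42e-07) and Gabpb2 from 136 ± 3.83 to 100.3 ± 10.3 CPM (log2 fold change -0.44 ± 0.06, adjusted p = 3.16e-05). Of chaperones and proteases 6 rose and 4 fell of 16 tested, with the co-chaperone Dnaja3 from 49.01 ± 1.699 to 76.6 ± 5.12 CPM (log2 fold change 0.64 ± 0.05, adjusted p = 3.23e-09) and the protease subunit Spg7 from 50.9 ± 1.66 to 35.5 ± 0.712 CPM (log2 fold change -0.52 ± 0.04, adjusted p = 9.17e-09). The called share of these lists ran from 36.4% to 70.6%, around the 56.3% of all genes.

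Cell type markers in the cultures were read beside these results. The CD8 T cell identity genes summed to between 7089 and 7424 CPM with vehicle and between 7178 and 7423 with ND-646 (7 higher and 7 lower of 17 tested). Macrophage, monocyte and neutrophil markers summed to between 251 and 262 CPM with vehicle and between 70.5 and 78.5 with ND-646 (1 higher and 4 lower of 6 tested), with C1qc, S100a8, S100a9 and Csf3r at 0 in every library. Those of CD4 and regulatory T cells summed to between 1271 and 1296 CPM with vehicle and between 867 and 892 with ND-646 (1 higher and 4 lower of 6 tested). That list includes Il2ra and Ctla4, which activated CD8 T cells can also express. Fibroblast markers, among them Thy1, which T cells also express, summed to between 1534 and 1652 CPM with vehicle and between 1131 and 1178 with ND-646 (1 higher and 4 lower of 8 tested), with Col5a1 at 0. B cell markers summed to between 115 and 131 CPM with vehicle and between 148 and 174 with ND-646 (1 higher and 5 lower of 6 tested), and those of NK and gamma delta T cells to between 169 and 177 CPM with vehicle and between 169.9 and 179 with ND-646 (1 higher and 4 lower of 6 tested). Dendritic cell markers summed to between 66.5 and 73.9 CPM with vehicle and between 56.4 and 69.96 with ND-646 (1 higher and 2 lower of 5 tested), with Siglech at 0, and endothelial markers to between 41.4 and 47.2 CPM with vehicle and between 28.5 and 32.00 with ND-646 (0 higher and 2 lower of 2 tested), with Cdh5 and Emcn at 0. Erythroid and platelet markers summed to between 8.997 and 10.9 CPM with vehicle and between 8.36 and 9.41 with ND-646 (0 higher and 0 lower of 1 tested), with Hba-a2 at 0. Their part in the member results was not tested.

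Each of the 3 tumour libraries held a smaller share of its counts in the mitochondrial mRNAs than any of the 3 spleen libraries. After TMM scaling 11 of the 13 were lower and none higher, with a median log2 fold change of -0.43 and a range from -0.77 to -0.10, and with copies added 13 of 13 were lower; scaled to the 17 CD8 identity genes instead, as deposited, 12 of the 13 were higher and none lower. Across all 15042 genes 83.8% were called, 43.6% higher and 40.2% lower, and over the 43 members 7 were higher and 30 lower, a median of -0.34. The scaling to CD8 identity genes moved the median of all genes by 0.92, from 0.03 to 0.95, and the split of all called genes from 6551 higher and 6051 lower to 10196 and 1924. The median of the mitochondrial mRNAs was -0.43 beside 0.03 for all genes, and 0.50 beside 0.95 when scaled to CD8 identity genes, a scaling that shifts all genes by about the same amount and so leaves the distance as it was. Values below are after TMM scaling.

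Markers of other cell types moved with these values, although both groups were sorted as CD8+ cells. The CD8 identity genes summed to between 10220.4 and 10292 CPM in spleen and between 4658 and 6261 in tumour (0 higher and 17 lower of 17 tested). Fibroblast and fibrosarcoma markers summed to between 1094 and 1145 CPM in spleen and between 13103 and 18298 in tumour (20 higher and 1 lower of 21 tested), the lower gene being Thy1, which is also on the CD8 list. Macrophage, monocyte and neutrophil markers summed to between 321 and 339 CPM in spleen and between 667 and 749 in tumour (8 higher and 0 lower of 11 tested), CD4 and regulatory T cell markers to between 10.9 and 15.9 CPM in spleen and between 303 and 432 in tumour (3 higher and 0 lower of 6 tested) and those of NK and gamma delta T cells to between 15.3 and 18.8 CPM in spleen and between 56.2 and 88.1 in tumour (7 higher and 1 lower of 8 tested). B cell markers summed to between 804 and 834 CPM in spleen and between 57.8 and 73.6 in tumour (0 higher and 6 lower of 6 tested). Dendritic cell markers summed to between 14.5 and 24.03 CPM in spleen and between 39.3 and 66.1 in tumour (5 higher and 1 lower of 7 tested), endothelial markers to between 161 and 172 CPM in spleen and between 54.9 and 62.8 in tumour (6 higher and 1 lower of 7 tested) and erythroid and platelet markers to between 3.08 and 4.56 CPM in spleen and between 2.13 and 2.57 in tumour (0 higher and 1 lower of 1 tested). No gene of the 9 lists was at 0 in all of the tissue libraries. The CD4 and regulatory T cell list includes Il2ra and Ctla4, which activated CD8 T cells can also express. The counts are after TMM scaling, and the part of other cell types in the member results was not tested.

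The heavy-strand complex I mRNAs were lower in tumour for 4 of 6 after TMM scaling, and higher for 5 of 6 when scaled to CD8 identity genes. mt-Nd2 had the largest change, at 1269, 1431 and 1437 CPM in spleen and 804, 866 and 762 CPM in tumour, or -0.77 ± 0.07 (SE, adjusted p = 3.69e-06). mt-Nd1 was at 1804, 1945 and 1988 CPM in spleen and 1417, 1470.1 and 1375 CPM in tumour. For mt-Nd1 the log2 fold change was -0.43 ± 0.05 (SE, adjusted p = 4.2e-05). The libraries of the groups did not overlap for either. mt-Nd4 was at 2069, 2376 and 2441 CPM in spleen and 1538, 1682 and 1544 CPM in tumour (-0.53, adjusted p = 6.36e-05), and mt-Nd5 at 1706, 1824 and 1898 CPM in spleen and 1213, 1245 and 1138 CPM in tumour (-0.59, adjusted p = 6.69e-06). mt-Nd3 and mt-Nd4l were the mRNAs not called, and both share reads with copies. The mt-Nd3 row held 58.7, 63.7 and 86.3 CPM in spleen and 91.1, 51.8 and 44.4 CPM in tumour, a change of -0.16 ± 0.31 (SE, adjusted p = 0.661), with tumour replicate 1 above all spleen libraries. With its copy added it was at 178, 187 and 186 CPM in spleen and 129.7, 128 and 117 CPM in tumour, a change of -0.56 ± 0.05 (SE, adjusted p = 7.01e-06), and the groups separated. The mt-Nd4l row held 89.9, 77.7 and 99.95 CPM in spleen and 91.4, 83.7 and 74.1 CPM in tumour, a change of -0.10 ± 0.10 (SE, adjusted p = 0.374), against 197, 229.7 and 227 CPM in spleen and 139, 148 and 131 CPM in tumour with the copy added, when its log2 fold change was -0.65 ± 0.07 (SE, adjusted p = 1.91e-05).

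mt-Nd6 was at 327, 317 and 328 CPM in spleen and 218, 224 and 203 CPM in tumour, a log2 fold change of -0.59 ± 0.05 (SE, adjusted p = 3.46e-06), close to the -0.59 of mt-Nd5, whose gene lies beside it. Cytochrome b, mt-Cytb, was at 2364, 2578 and 2649 CPM in spleen and 1767, 1946 and 1746 CPM in tumour. For mt-Cytb the log2 fold change was -0.48 ± 0.06 (SE, adjusted p = 6.02e-05). Of the complex IV mRNAs, mt-Co1 was at 9224, 9897 and 10055 CPM in spleen and 7148, 7412 and 7264 CPM in tumour (-0.42, adjusted p = 1.91e-05) and mt-Co2 at 2809, 3044 and 3125 CPM in spleen and 2404, 2638 and 2433 CPM in tumour (-0.26, adjusted p = 0.00191). For these 4 mRNAs every tumour library was below every spleen library, in a comparison where 83.8% of all genes tested were called. mt-Co3 was at 1077, 693 and 810.3 CPM in spleen and 672, 706 and 612 CPM in tumour, a change of -0.37 ± 0.15 (SE, adjusted p = 0.0457), with 1 tumour library above the lowest spleen library. Its call was lost with no low-count filter and without any library but spleen replicate 2, the values running from -0.39 to -0.19. With the copy added mt-Co3 was at 2617, 2838 and 2839 CPM in spleen and 2209.9, 2297 and 2292 CPM in tumour. For mt-Co3 the log2 fold change was -0.29 ± 0.05 (SE, adjusted p = 0.00038). mt-Atp6 was at 479, 459 and 597 CPM in spleen and 460.3, 372 and 359.8 CPM in tumour, a change of -0.36 ± 0.12 (SE, adjusted p = 0.023) whose call was lost with no low-count filter (-0.34) and without spleen replicate 3 (-0.22), tumour replicate 2 (-0.29) or tumour replicate 3 (-0.27). With its copy added mt-Atp6 was at 3095, 3396 and 3449 CPM in spleen and 2529.9, 2657 and 2588 CPM in tumour. For mt-Atp6 the log2 fold change was -0.35 ± 0.05 (SE, adjusted p = 0.000149). mt-Atp8, for which no copy was found, was at 124, 129.9 and 125 CPM in spleen and 82.5, 84.9 and 80.9 CPM in tumour. For mt-Atp8 the log2 fold change was -0.61 ± 0.05 (SE, adjusted p = 1.2e-06). On the deposited rows all 13 differences have the other sign when scaled to CD8 identity genes.

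The 13 mRNAs held 2.34, 2.51 and 2.58% of the counts in the spleen libraries and 1.78, 1.87 and 1.76% in the tumour libraries, or 2.47% ± 0.12 against 1.80% ± 0.06 (SD over 3 libraries per group). The exact permutation p was 0.1, and 3 against 3 can give none lower. The make-up of the pool could not reach 0.05 in this design. With copies added mt-Co1 took 32.6% ± 0.18 in spleen and 32.8% ± 0.41 in tumour, and the groups overlapped. The groups did not overlap for 10 of the 13 shares, all but mt-Co1, mt-Nd1 and mt-Cytb, each at the exact permutation p of 0.1. Among the 10, the shares of mt-Co2, mt-Co3 and mt-Atp6 were higher in tumour and the other 7 lower. mt-Nd2 took 4.63% ± 0.10 and 3.66% ± 0.16, mt-Co2 10.6% ± 0.11 and 11.9% ± 0.11, and mt-Co3 9.28% ± 0.08 and 10.2% ± 0.23 in spleen and tumour. The log2 ratios within the bicistronic pairs, with copies added, did not overlap either: mt-Atp8 to mt-Atp6 was -4.71 ± 0.07 in spleen and -4.97 ± 0.03 in tumour, and mt-Nd4l to mt-Nd4 was -3.44 ± 0.03 and -3.51 ± 0.05 (exact permutation p = 0.1 each). As no copy of mt-Atp8 was found, its ratio has copies added to mt-Atp6 only. The log2 ratio of mt-Nd6 to the heavy-strand mRNAs was -6.23 ± 0.07 in spleen and -6.38 ± 0.04 in tumour (exact permutation p = 0.1). The rRNAs were higher in tumour: mt-Rnr1 went from 178 ± 8.46 to 525 ± 71.7 CPM (log2 fold change 1.56 ± 0.10, adjusted p = 4.21e-07) and mt-Rnr2 from 622 ± 35.00 to 892 ± 35.6 CPM (log2 fold change 0.52 ± 0.06, adjusted p = 1.72e-05), and their summed share was 0.0803% ± 0.0046 and 0.141% ± 0.010 (exact permutation p = 0.1).

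All 5 genes listed under mitochondrial transcription, the rRNA methyltransferase Tfb1m among them, were lower in tumour after TMM scaling. When scaled to CD8 identity genes, 2 were higher and none lower. Polrmt was at 63.05, 62.5 and 62.1 CPM in spleen and 32.7, 31.2 and 30.7 CPM in tumour. For Polrmt the log2 fold change was -0.99 ± 0.05 (SE, adjusted p = 1.09e-07). Tefm was at 7.13, 5.39 and 6.18 CPM in spleen and 2.42, 4.204 and 4.35 CPM in tumour. For Tefm the log2 fold change was -0.77 ± 0.23 (SE, adjusted p = 0.0114). Neither had any overlap between groups. Tfam had -0.60 (adjusted p = 1.87e-05), Tfb1m -0.65 (0.00524) and Tfb2m -0.21 (0.0448), the call of Tfb2m being lost with DESeq2 (-0.15), with no low-count filter (-0.19) and without any single library but tumour replicate 1. Of the replication genes, Polg, Twnk and Ssbp1 were lower and Polg2 and Mgme1 higher, whereas scaled to CD8 identity genes 5 of the 6 were higher and none lower. Polg was at 142, 141 and 132 CPM in spleen and 71.4, 68.2 and 63.99 CPM in tumour. For Polg the log2 fold change was -1.03 ± 0.06 (SE, adjusted p = 1.37e-07). Mgme1 was at 8.09, 7.402 and 9.09 CPM in spleen and 10.3, 10.95 and 10.6 CPM in tumour, a change of 0.38 ± 0.12 (SE, adjusted p = 0.0127) that was lost without spleen replicate 2 (0.31, adjusted p = 0.0571). Twnk had -0.44 (adjusted p = 0.0017), Ssbp1 -0.25 (0.00699, lost with DESeq2 at -0.19), Polg2 0.29 (0.00969) and Top1mt -0.02 (0.906).

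Hsd17b10 was at 45.6, 46.8 and 45.8 CPM in spleen and 62.6, 68.1 and 66.6 CPM in tumour, a log2 fold change of 0.51 ± 0.05 (SE, adjusted p = 1.15e-05), while Trmt10c of the same RNase P had -0.29 (adjusted p = 0.00249), positive when scaled to CD8 identity genes, and Elac2 -0.12 (0.0719). Slirp was at 10.9, 11.1 and 10.01 CPM in spleen and 15.99, 15.04 and 13.4 CPM in tumour, a change of 0.47 ± 0.11 (SE, adjusted p = 0.00218), while its partner Lrpprc had -0.22 (0.00269), again positive under that scaling. No tumour library of Slirp or Hsd17b10 overlapped spleen. Mtpap had -0.29 (0.00211), Supv3l1 -0.25 (0.0234) and Pnpt1 -0.15 (0.072), the call of Supv3l1 being lost with DESeq2 (-0.18) and without spleen replicate 3, tumour replicate 2 or tumour replicate 3 (-0.22 to -0.16). Pnpt1 was called lower without tumour replicate 2 (-0.18, adjusted p = 0.0373).

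Grsf1 was at 50.8, 50.3 and 47.97 CPM in spleen and 58.1, 64.2 and 63.3 CPM in tumour. For Grsf1 the log2 fold change was 0.32 ± 0.06 (SE, adjusted p = 0.000603). The other granule and assembly genes had -0.61 for Dhx30 (adjusted p = 8.44e-07), -0.33 for Ptcd1 (0.00163) and -0.36 for Ptcd3 (0.000959), all positive when scaled to CD8 identity genes. In the FASTK family, Fastkd1 had the largest change among the nuclear members, at 18.9, 20.4 and 20.5 CPM in spleen and 6.76, 7.02 and 7.21 CPM in tumour, or -1.51 ± 0.09 (SE, adjusted p = 3e-07), and it was the only member called lower under both scalings (-0.59 when scaled to CD8 identity genes). Fastkd2 was at 23.02, 20.3 and 21.6 CPM in spleen and 12.6, 10.9 and 12.7 CPM in tumour. For Fastkd2 the log2 fold change was -0.84 ± 0.10 (SE, adjusted p = 2.33e-05). No spleen library of either gene overlapped tumour. Fastk had -0.52 (adjusted p = 1.15e-05), Tbrg4 -0.17 (0.0182), Fastkd3 0.25 (0.039) and Fastkd5 -0.34 (0.0557). Fastkd5 was called lower with limma-voom (-0.35, adjusted p = 0.0457), with no low-count filter (-0.32, 0.0435) and without tumour replicate 1 (-0.40, 0.0192). The calls of Tbrg4 and Fastkd3 did not stand without every library: Tbrg4 was lost with DESeq2 (-0.10) and in 4 of the 6 leave-out fits (-0.15 to -0.12), and Fastkd3 in 3 of 6 (0.18 to 0.25). Lonp1 was at 108, 107 and 103 CPM in spleen and 126, 139 and 132 CPM in tumour, a change of 0.32 ± 0.05 (SE, adjusted p = 0.000278).

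In 5 of the 6 further pathway lists more genes were lower than higher in tumour after TMM scaling, and in all 6 more were higher when scaled to CD8 identity genes. Of translation factors 1 was higher and 9 lower of 15, against 9 and 2 when scaled to CD8 identity genes, Gfm1 going from 34.6 ± 0.723 to 58.1 ± 2.39 CPM (log2 fold change 0.75 ± 0.06, adjusted p = 1.09e-06) and Rmnd1 from 35.4 ± 1.097 to 11.6 ± 2.59 CPM (log2 fold change -1.62 ± 0.13, adjusted p = 2.53e-06). Of synthetases 3 were higher and 15 lower of 22 (9 and 3 under that scaling), with Kars, which also serves the cytosol, from 128 ± 2.497 to 253 ± 6.33 CPM (log2 fold change 0.98 ± 0.05, adjusted p = 4.9e-08) and Ears2 from 24.8 ± 0.994 to 6.397 ± 0.293 CPM (log2 fold change -1.95 ± 0.09, adjusted p = 4.29e-08). Of other RNA processing genes 2 were higher and 24 lower of 31 (12 and 5), with Trmt61b from 4.29 ± 0.625 to 6.54 ± 0.321 CPM (log2 fold change 0.61 ± 0.16, adjusted p = 0.00508) and the termination factor Mterf1a from 13.03 ± 0.278 to 3.12 ± 0.654 CPM (log2 fold change -2.06 ± 0.16, adjusted p = 1.23e-06). Of mtDNA maintenance genes 5 were higher and 10 lower of 17 (12 and 2). Dna2 and Tk2 were again the extremes of that list, with Dna2 from 2.997 ± 0.7 to 16.5 ± 1.45 CPM (log2 fold change 2.45 ± 0.17, adjusted p = 5.45e-07) and Tk2 from 68.9 ± 2.59 to 20.1 ± 1.46 CPM (log2 fold change -1.77 ± 0.07, adjusted p = 1.53e-08). Of regulators 4 were higher and 6 lower of 15 (11 and 2), with Tfe3 from 30.6 ± 1.84 to 64.2 ± 4.02 CPM (log2 fold change 1.07 ± 0.07, adjusted p = 4.06e-07) and the coactivator Ppargc1b from 19.2 ± 0.931 to 3.34 ± 0.315 CPM (log2 fold change -2.52 ± 0.12, adjusted p = 4.39e-08). Chaperones and proteases had more genes higher than lower after TMM scaling, 8 and 6 of 16 (15 and 0), with the chaperonin Hspd1 from 174 ± 2.29 to 497 ± 51.6 CPM (log2 fold change 1.52 ± 0.07, adjusted p = 5.86e-08) and the inner-membrane protease Oma1 from 15.9 ± 0.475 to 7.37 ± 0.443 CPM (log2 fold change -1.11 ± 0.10, adjusted p = 4.39e-06). The called share of the lists ran from 66.7% to 88.2%, around the 83.8% of all genes.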

How the data were processed

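Poly(A)-selected RNA of 14 libraries was sequenced in 150-base pairs, per the labels. The values are estimated counts per gene symbol deposited by the authors in 2 tables with tools that, per the submitters' processing notes, include Salmon, STAR and DESeq2 (no versions). Their genome build, annotation and strand setting were not stated in the labels. Of all values, zeros included, 9.16% (culture) and 9.15% (tissue) were not whole (tolerance 1e-06), so counts were rounded before testing.

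Genes were filtered with filterByExpr, scaled by TMM and tested with edgeR 4.0.16 (R 4.3.3) by robust quasi-likelihood, within each table, with Benjamini-Hochberg adjustment over all genes tested and a threshold of 0.05. CPM are counts per 1e+06 of the scaled library. Single values (percent of counts, log2 ratios) were compared by exact permutation tests (scipy 1.17.1). Nuclear copies were found with blastn 2.17.0+ in GENCODE M21 transcripts (GRCm38), a build that may differ from the authors', and figures were drawn with matplotlib 3.10.9. The fits were tested on simulated data.

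All members are named. Values per library are given for the mitochondrial mRNAs, for the 5 highest and 5 lowest nuclear members of each comparison, and for Polrmt, chosen after its values were seen. From each of the 6 further pathway lists the called genes with the highest and lowest log2 fold change and a mean of at least 5 CPM are named. The 9 marker lists, the members and all other lists were chosen with earlier results of these data known. Alternatives were DESeq2 1.42.0, limma-voom (limma 3.58.1), no filter, other scalings, added copies, a replicate block and leaving out libraries.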

Additional observations from a re-analysis of the deposited data

Results flagged for a closer look

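In 7 of the 90 gene-by-group sets of 4 culture libraries, 1 library stood apart from the other 3 by Dixon's test at its 95% critical value, which chance alone does in about 1 in 20 sets. Vehicle replicate 3 was apart for mt-Nd5, at 1906 CPM against 1654 to 1685, and for mt-Co1, at 15979 CPM against 14463 to 14669. Vehicle replicate 2 was apart for mt-Co3, at 341 CPM against 533 to 542, for Slirp, at 22.2 CPM against 19.8 to 20.1, and for Elac2, at 69.1 CPM against 62.3 to 62.7. Among the ND-646 libraries, replicate 4 was apart for Grsf1, at 70.9 CPM against 79.4 to 80.8, and replicate 1 for Fastkd3, at 14.2 CPM against 16.5 to 17.0. The groups of 3 tissue libraries were too small for this test.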

How the results depend on the processing

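In culture the members called numbered 27 and the mitochondrial mRNAs called 11, and 27 to 30 members and 10 to 12 mRNAs were called under DESeq2, limma-voom, no filter, both other scalings, added copies, the replicate block and either ND-646 pair left out, a choice made after seeing the data. In tissue 37 members and 11 mRNAs were called, against 33 to 39 and 9 to 13 under the same kinds of alternative. Leaving out 1 library at a time gave 27 to 28 members and 10 to 12 mRNAs in culture and 32 to 36 and 9 to 11 in tissue. The difference in the share of counts ran from -0.782 to -0.659 percentage points in culture, each with an exact permutation p of 0.0571, the smallest that 3 against 4 allows, and from -0.740 to -0.620 in tissue. The make-up of the pool differed for 11 mRNAs in culture, for 13 with copies added and for 8 with mt-Co1 left out of the sum (mt-Nd5, mt-Nd6 and mt-Co3 higher, mt-Nd1, mt-Nd2, mt-Nd4, mt-Nd4l and mt-Cytb lower).

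In tissue, scaling to CD8 identity genes turned the sign of 33 of the 43 members' log2 fold changes, since it moved all genes by a median of 0.92. The mitochondrial mRNAs then had mt-Nd1 0.50, mt-Nd2 0.17, mt-Nd3 0.73, mt-Nd4 0.40, mt-Nd4l 0.82, mt-Nd5 0.34, mt-Nd6 0.34, mt-Co1 0.51, mt-Co2 0.67, mt-Co3 0.56, mt-Atp6 0.55, mt-Atp8 0.32 and mt-Cytb 0.46. The nuclear members had Tfam 0.32, Tfb1m 0.25, Tfb2m 0.71, Tefm 0.18, Twnk 0.50, Ssbp1 0.67, Top1mt 0.93, Lrpprc 0.71, Pnpt1 0.79, Supv3l1 0.67, Mtpap 0.64, Dhx30 0.31, Elac2 0.81, Trmt10c 0.63, Fastk 0.41, Fastkd2 0.073, Fastkd5 0.56, Tbrg4 0.76, Ptcd1 0.60 and Ptcd3 0.58. Polrmt (-0.065) and Polg (-0.10) kept their sign but lost the call. In culture mt-Nd6 had -0.104 (edgeR, adjusted p = 0.0339) with ND-646 replicates 1 and 4 left out, and the cause was not tested.

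The labels do not state whether replicate numbers pair the samples, and the counts gave no sign that they do. Same-numbered libraries had correlations of deviations from -0.121 to 0.0659 in culture and from -0.0463 to -0.0193 in tissue. In culture 2 of 8 libraries correlated best with their own number, and in tissue 0 of 6. With so few libraries per group, pairing is not excluded. With the replicate block 7864 genes were called in culture against 8028, and 12492 in tissue against 12602. Members called were then 28 and 36, with Polg2 (-0.189, adjusted p = 0.0470) gained in culture, Fastkd5 (-0.348, 0.0407) gained in tissue, and Tfb2m (-0.214, 0.0582) and Fastkd3 (0.248, 0.0597) not called. No libraries agreed within sampling noise, the chi-square per degree of freedom being 2.33 or more. Tefm, the nuclear member with the fewest counts, had the largest standard error of the 30 in both experiments (0.09 and 0.23).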

Other observations

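The ratio of the 2 mitochondrial rRNAs to each other belongs to no comparison above. The log2 ratio of mt-Rnr2 to mt-Rnr1 was 1.53 ± 0.07 with vehicle and 0.87 ± 0.10 with ND-646 (SD, n = 4 each; exact permutation p = 0.0286), and 1.81 ± 0.01 in spleen and 0.77 ± 0.17 in tumour (SD, n = 3 each; exact permutation p = 0.1). The groups did not overlap in either experiment. These are poly(A)-selected libraries, so the counts are of rRNA that the selection retained. The rows of the 22 mitochondrial tRNAs were at 0 in all 14 libraries.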
